A study of Mus musculus with 16 samples.

Results

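The 38 interferon response genes described here are mouse genes whose transcription rises when a cell receives an interferon signal. They were found by symbol in the authors' gene tables and joined by gene identifier to the count table, where all 38 of 38 were present among 55487 genes. All 38 also passed the filter on low counts, which left 16549 genes for testing. They were measured by poly-A RNA sequencing in inguinal white adipose tissue, the subcutaneous fat depot of the groin, in 16 male mice. The mice were whole-body knockouts of Kmo (KO) and their wild-type littermates (WT), 6 to 7 months old, on a chow diet or a high-fat diet (HFD), with 4 animals in each of the 4 groups. Kmo encodes kynurenine 3-monooxygenase, an enzyme of tryptophan breakdown, and no allele or agent beyond the Kmo deletion and the diet is named in the labels. The composition and the length of the HFD, and the exact form of the deletion, are not given in the sources used here.

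Interferons are secreted proteins released on infection or on sensing of foreign or misplaced nucleic acid. Type I interferons bind the IFNAR1 and IFNAR2 receptor, which acts through a complex holding STAT2 and IRF9 at interferon-stimulated response elements (ISRE), whereas interferon gamma acts at gamma-activated sites (GAS). The induced genes include the transcription factors that spread the response, sensors of viral RNA, guanylate binding proteins that attack intracellular pathogens, antiviral effectors, the ubiquitin-like protein ISG15 and the machinery that loads peptides on MHC class I. In adipose tissue such genes are read out both in adipocytes and in the immune cells that live among them.

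Library totals ran from 13824404 to 16909361 counted read pairs, and values are given as CPM, counts scaled to library size with TMM factors, with fold changes on the log2 scale. Kmo itself had 40 to 298 counts in the 8 WT libraries and 1 to 8 counts in the 8 KO libraries, so the genotype labels held in every library. The 9 adipocyte markers summed to between 23143 and 38524 CPM over all libraries. The libraries differed in muscle and in lymphoid content. A score over 10 skeletal muscle markers, averaging their log2 CPM, ran from 0.018 to 7.21. A lymphoid score, averaging log2 CPM over 10 markers of T cells and 9 of B cells, was above 4 in 6 libraries (WT chow 2 and 4, KO chow 1 and 3, WT HFD 2 and KO HFD 1) and under 3 in the other 10. The inguinal depot surrounds a lymph node. The diet results are therefore also given with the lymphoid score in the model and in those 10 libraries. Those 10 are WT chow 1 and 3, KO chow 2 and 4, WT HFD 1, 3 and 4, and KO HFD 2, 3 and 4. The files of 12 libraries are named as merged and those of the other 4 carry a single lane (WT chow 2, WT HFD 3 and 4, and KO HFD 1).

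Promoter sequences of the genes were searched for the ISRE and GAS cores. A window of 300 bases, 250 before the annotated start and 50 after it, was in the RefSeq promoter table (GRCm38.p6) for 26 of the 38 genes, as 30 windows. The ISRE core was searched as GAAANNGAAA on both strands, which on the opposite strand reads TTTCNNTTTC, and the GAS core as TTCNNNGAA, which reads the same on both strands. The windows below are those of the gene with the smallest p-value for diet among the genes with a window, in each of 6 role groups, and Isg15 was added after its values were seen because it holds the ISRE core 3 times and was not called for diet. Capitals mark every match to either motif, and each sequence runs 5′ to 3′ along the gene's own strand.
Gbp7: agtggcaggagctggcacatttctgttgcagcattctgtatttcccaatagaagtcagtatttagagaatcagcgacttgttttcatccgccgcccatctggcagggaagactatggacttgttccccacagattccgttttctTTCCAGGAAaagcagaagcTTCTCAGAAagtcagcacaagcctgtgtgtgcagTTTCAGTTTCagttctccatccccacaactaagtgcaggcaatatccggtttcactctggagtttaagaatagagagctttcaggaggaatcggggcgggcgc
Ifit3: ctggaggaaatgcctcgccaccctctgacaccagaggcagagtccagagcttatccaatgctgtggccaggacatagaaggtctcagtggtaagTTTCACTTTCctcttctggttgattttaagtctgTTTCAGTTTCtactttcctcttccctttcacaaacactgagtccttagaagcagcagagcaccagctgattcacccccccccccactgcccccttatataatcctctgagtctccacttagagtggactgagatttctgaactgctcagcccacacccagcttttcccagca
Isg15: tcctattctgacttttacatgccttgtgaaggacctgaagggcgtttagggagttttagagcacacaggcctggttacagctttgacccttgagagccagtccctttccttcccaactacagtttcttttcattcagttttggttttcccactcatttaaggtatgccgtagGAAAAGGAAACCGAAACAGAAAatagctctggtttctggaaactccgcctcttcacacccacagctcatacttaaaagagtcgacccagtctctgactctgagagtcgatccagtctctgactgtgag
Psmb9: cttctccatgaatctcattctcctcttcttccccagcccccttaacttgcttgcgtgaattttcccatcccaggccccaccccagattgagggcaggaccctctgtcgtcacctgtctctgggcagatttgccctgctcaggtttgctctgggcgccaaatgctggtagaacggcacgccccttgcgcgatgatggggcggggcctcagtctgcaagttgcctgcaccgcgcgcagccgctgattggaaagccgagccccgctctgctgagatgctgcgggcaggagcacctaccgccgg
Xaf1: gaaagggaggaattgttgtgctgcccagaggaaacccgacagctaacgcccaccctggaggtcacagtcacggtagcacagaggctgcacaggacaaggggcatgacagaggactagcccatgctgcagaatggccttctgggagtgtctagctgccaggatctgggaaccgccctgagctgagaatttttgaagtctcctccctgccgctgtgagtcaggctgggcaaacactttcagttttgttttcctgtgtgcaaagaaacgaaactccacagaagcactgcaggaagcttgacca
Irf7: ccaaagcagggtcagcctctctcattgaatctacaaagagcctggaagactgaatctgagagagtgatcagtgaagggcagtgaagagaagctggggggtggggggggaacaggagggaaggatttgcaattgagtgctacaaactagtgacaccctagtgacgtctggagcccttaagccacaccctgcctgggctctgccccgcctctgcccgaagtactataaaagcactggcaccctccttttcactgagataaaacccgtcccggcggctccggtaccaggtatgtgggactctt
Trim25: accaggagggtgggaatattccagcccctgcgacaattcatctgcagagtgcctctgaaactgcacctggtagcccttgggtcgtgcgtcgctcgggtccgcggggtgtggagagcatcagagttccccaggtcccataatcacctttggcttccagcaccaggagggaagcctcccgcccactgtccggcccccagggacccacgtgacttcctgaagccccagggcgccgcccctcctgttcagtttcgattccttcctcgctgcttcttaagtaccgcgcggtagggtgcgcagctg

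In the Gbp7 window (chr3:142530086-142530385, plus strand) the ISRE core began 53 bases before the start and the GAS core began 106 and 87 bases before it. Ifit3 (chr19:34583279-34583578, plus strand) held the ISRE core 156 and 122 bases before the start. In Isg15 (chr4:156200769-156201068, minus strand) 3 overlapping matches began 78, 72 and 66 bases before the start and form 1 run of capitals. The windows of Psmb9 (chr17:34187281-34187580, minus strand), Xaf1 (chr11:72301379-72301678, plus strand), Irf7 (chr7:141266375-141266674, minus strand) and Trim25 (chr11:88999153-88999452, plus strand) held neither string of letters. The Psmb9 window follows the RefSeq start and lies wholly inside the Ensembl gene counted here (chr17:34181987-34187764). The bases before the Ensembl start of Psmb9 were not searched.

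The ISRE core lay in 13 of the 26 genes with a window, which is 43.3% of their 30 windows against 3.44% of all 32851 promoter windows of the same length. The GAS core lay in 8 of the 26 genes (26.7% of their windows against 8.3% of all windows), and 4 genes held both (13.3% against 0.454%): Bst2, Gbp5, Gbp7 and Oas1a. Genes that were lower on HFD and genes that were not both held the motifs. Of the 12 genes with a window that were lower on HFD (below), 5 held the ISRE core and 4 the GAS core, and of the 14 that were not called, 8 held the ISRE core and 4 the GAS core.

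Levels spanned a wide range. Per kilobase of exon (FPKM, averaged over all 16 libraries), Ifi27, a mitochondrial protein gene of the interferon response, was highest at 369.7 FPKM. It was followed by Bst2, which encodes tetherin, a protein that holds budding virus on the cell surface, at 64.6 FPKM, by Gbp2 at 32.2 FPKM and by Ifit3 at 19.05 FPKM. The lowest were Ifi44 at 0.713 FPKM and Mx2 at 0.932 FPKM. Within groups, the SD of log2 CPM between animals had a median of 0.323 over the 38 genes, from 0.135 for Ifi35 to 0.771 for Mx1, against a median of 0.290 over all genes tested.

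**Figure D1:**
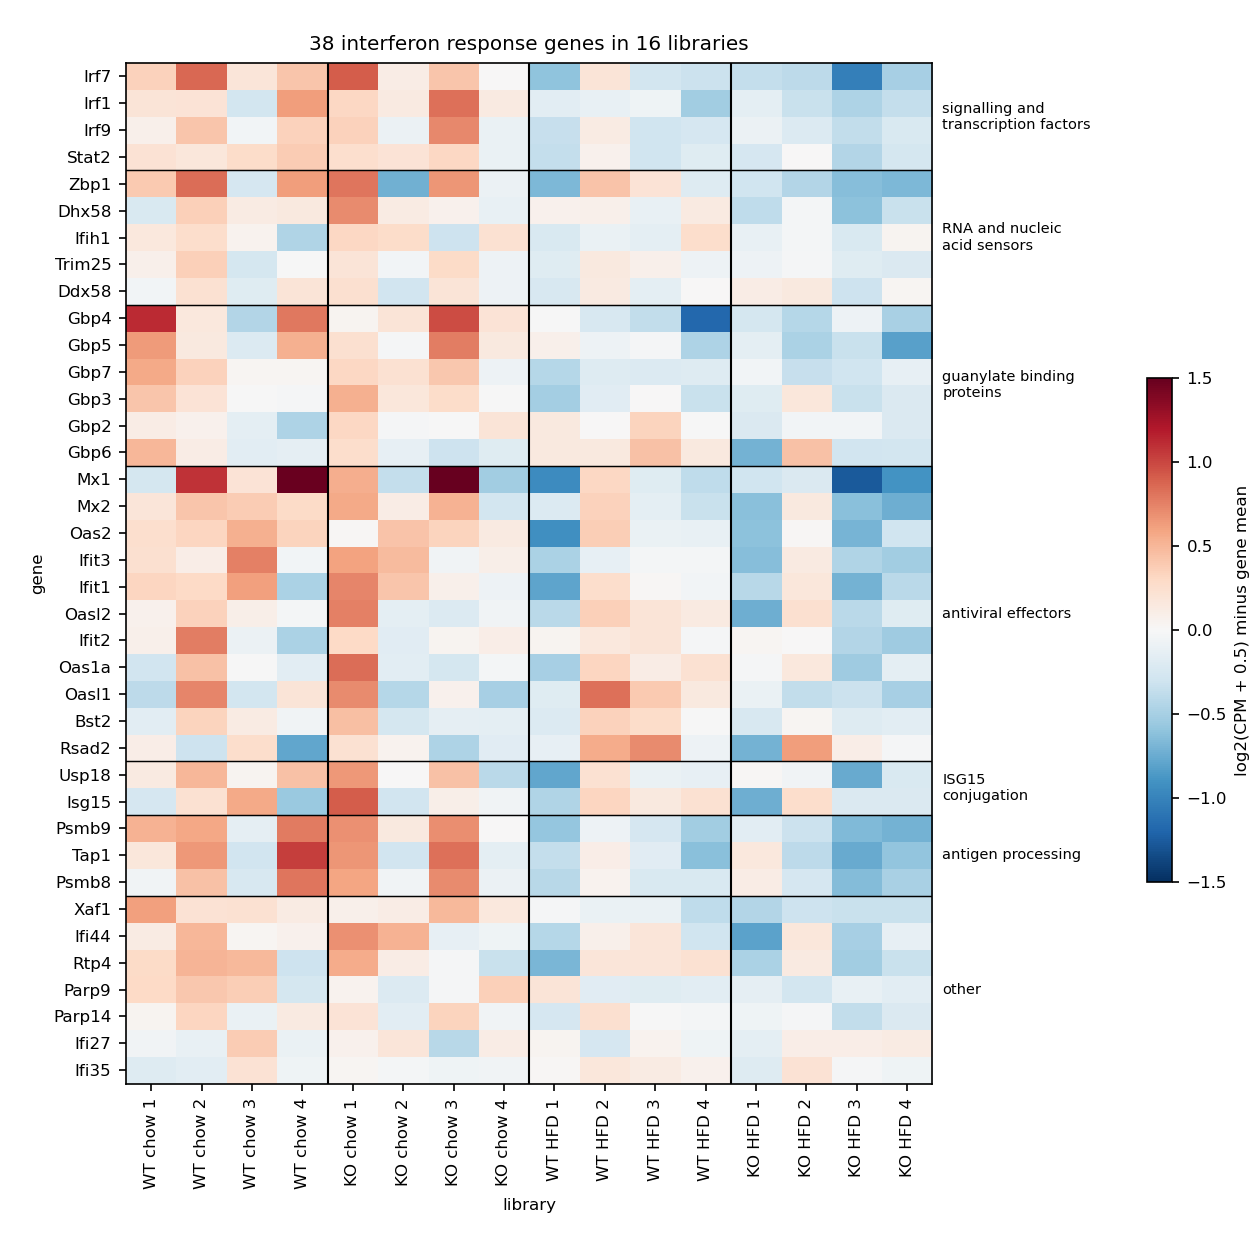
Heat map of log2(CPM + 0.5) of the 38 genes (rows, by role and then by their diet difference) in the 16 libraries (columns, by group), each gene centred on its own mean; red is above the mean and blue below. Most rows of the signalling, guanylate binding protein and antigen processing groups are redder in the 8 chow libraries than in the 8 HFD libraries, and Mx1 is darkest in WT chow 4 (21.3 CPM) and KO chow 3 (24.5 CPM).

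The main difference was between diets. Over both genotypes, 17 of the 38 genes were lower on HFD than on chow and 0 were higher (44.7% of the genes, against a background of 33.1% of all genes tested called in either direction, 16% called lower and 17.1% called higher; edgeR quasi-likelihood test, Benjamini-Hochberg adjusted over all genes). The 17 were Stat2, Irf9, Irf1 and Irf7 among the signalling factors, Zbp1 among the sensors, Gbp3, Gbp4, Gbp5 and Gbp7 among the guanylate binding proteins, Ifit3, Oas2, Mx1 and Mx2 among the antiviral effectors, the 3 antigen processing genes Psmb8, Psmb9 and Tap1, and Xaf1. The median log2 fold change over the 38 was -0.42 against -0.04 over all genes, and 35 of 38 lay below 0 against 54.0% of all genes. In bulk tissue, fewer cells of a type and less RNA per cell cannot be told apart. With upper-quartile factors the median of all genes moved to -0.10, the share of all genes called lower rose to 19.9%, and 22 of the 38 were called, all lower.

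**Figure D2:**
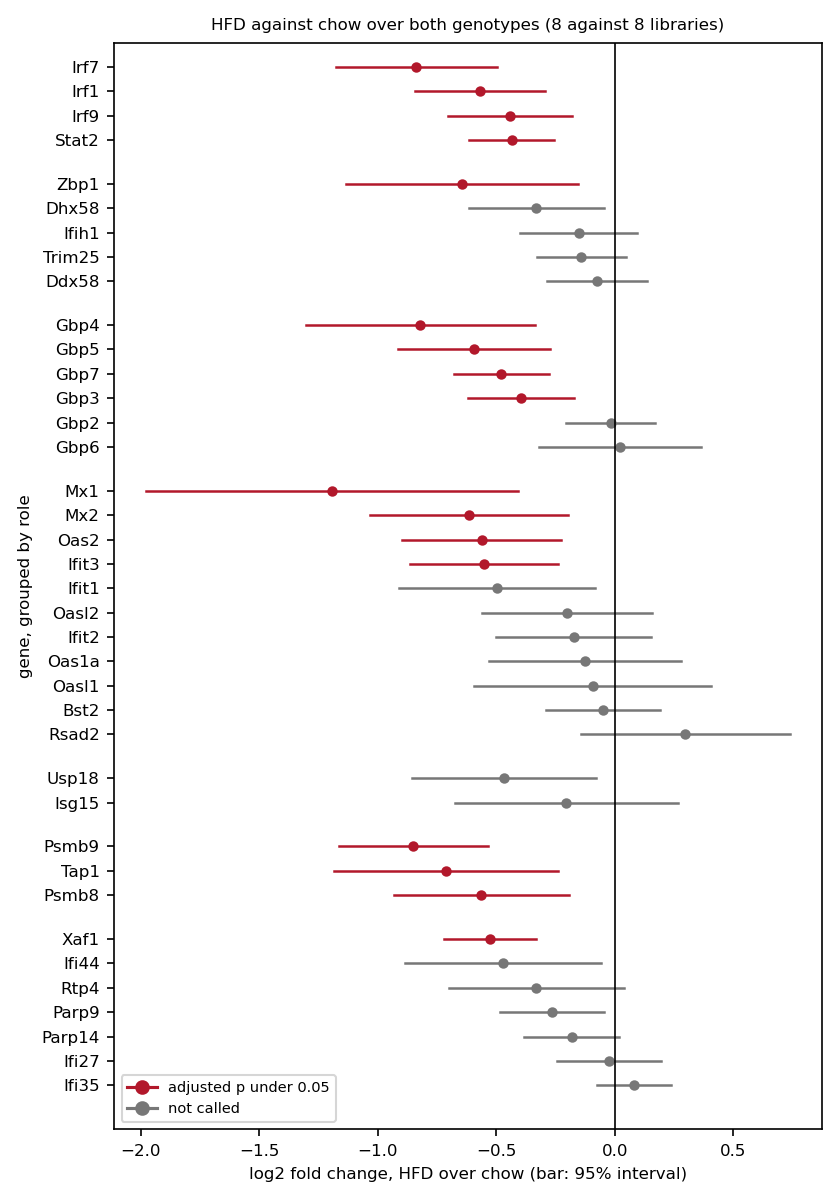
Log2 fold change of HFD over chow across both genotypes for the 38 genes (8 against 8 libraries), grouped by role, with 95% intervals; red marks genes with an adjusted p under 0.05. All 17 red genes lie to the left of 0, from Gbp3 at -0.40 to Mx1 at -1.19, and Rsad2 is farthest to the right at 0.30 with an interval that spans 0.

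All 4 signalling genes fell. Stat2 encodes a subunit of the type I interferon transcription complex, and its CPM in libraries 1 to 4 of each group was 54.1, 52.6, 56.5 and 61.03 (WT) and 55.7, 53.8, 57.97 and 43.6 (KO) on chow against 36.1, 48.8, 37.8 and 40.9 (WT) and 39.2, 46.6, 34.1 and 38.6 (KO) CPM on HFD. All 4 WT chow values lay above all 4 WT HFD values, while KO chow 4 fell inside the HFD range, and the diet difference was -0.43 (SE 0.08, adjusted p = 0.00158). Irf9 gives the same complex its DNA contact, at 37.3, 47.5, 34.4 and 45.004 (WT) and 45.1, 33.3, 58.8 and 33.02 (KO) on chow against 27.7, 38.7, 28.7 and 29.7 (WT) and 33.2, 30.6, 27.4 and 30.1 (KO) CPM on HFD. Its groups overlapped in both genotypes, and it fell by 0.44 (SE 0.12, adjusted p = 0.0131). Irf1, a factor induced above all by interferon gamma, stood at 62.9, 63.7, 45.6 and 85.7 (WT) and 68.2, 60.6, 98.2 and 60.6 (KO) on chow against 49.3, 50.9, 52.5 and 38.4 (WT) and 49.9, 43.6, 39.9 and 42.96 (KO) CPM on HFD. In KO all 4 chow values exceeded all 4 HFD values, in WT the lowest chow library lay inside the HFD range, and the pooled value was -0.57 (SE 0.13, adjusted p = 0.00412). Irf7, the factor that amplifies type I interferon production, had 45.2, 64.8, 40.3 and 47.6 (WT) and 66.99, 38.4, 47.4 and 35.6 (KO) on chow against 23.2, 40.6, 29.3 and 28.2 (WT) and 27.5, 26.8, 17.1 and 24.97 (KO) CPM on HFD. KO HFD lay wholly below KO chow, whereas WT HFD 2 reached the lowest WT chow library, and the fold change of -0.84 (SE 0.16, adjusted p = 0.00142) was the steepest of the 4. By the deposited annotation, 20.02% of the exon bases of Irf1 overlap the predicted gene Gm17334, and counting did not use strand.

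Of the 5 sensors, 1 fell. Zbp1, a sensor of Z-form nucleic acid that can start necroptosis, measured 17.7, 24.3, 11.2 and 20.9 (WT) and 23.7, 7.93, 21.4 and 12.5 (KO) on chow against 8.20, 18.2, 15.5 and 11.7 (WT) and 10.8, 9.74, 8.41 and 8.16 (KO) CPM on HFD and changed by -0.64 (SE 0.23, adjusted p = 0.0426). Its groups overlapped widely, and the call was lost on leaving out any 1 of 11 libraries, with the highest adjusted p, 0.0899, without KO chow 3. The RNA sensor Ddx58, which encodes RIG-I, read 44.4, 53.6, 40.1 and 52.3 (WT) and 53.8, 37.3, 52.2 and 43.1 (KO) on chow against 38.4, 50.1, 41.03 and 45.9 (WT) and 49.1, 50.5, 36.6 and 46.6 (KO) CPM on HFD, with a diet value of -0.07 (SE 0.10, adjusted p = 0.591). Trim25, the ubiquitin ligase that activates RIG-I, showed 74.9, 91.2, 59.3 and 71.05 (WT) and 81.5, 69.3, 87.2 and 67.4 (KO) on chow against 62.6, 78.8, 75.3 and 67.5 (WT) and 67.6, 70.3, 62.9 and 60.9 (KO) CPM on HFD and a diet value of -0.14 (SE 0.09, adjusted p = 0.229). Both overlapped between diets in each genotype. Ifih1, which encodes MDA5, and Dhx58, which encodes LGP2, were not called either, at -0.15 and -0.33.

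Of the 6 guanylate binding proteins, 4 fell and the most abundant did not. Gbp2 held 86.5, 83.8, 72.4 and 57.96 (WT) and 99.7, 79.3, 80.1 and 91.99 (KO) on chow against 89.2, 80.4, 101 and 79.7 (WT) and 69.03, 77.9, 77.99 and 68.8 (KO) CPM on HFD, with a diet value of -0.02 (SE 0.09, adjusted p = 0.898) and overlap between diets in WT. Gbp7 held 58.3, 49.96, 40.05 and 39.9 (WT) and 48.6, 46.1, 52.04 and 37.02 (KO) on chow against 28.98, 34.1, 33.8 and 34.1 (WT) and 38.1, 30.6, 31.6 and 35.8 (KO) CPM on HFD. In WT every chow library exceeded every HFD library, in KO the lowest chow and the highest HFD library crossed, and the diet difference was -0.48 (SE 0.10, adjusted p = 0.00180). Gbp3 counted 59.4, 51.3, 44.3 and 44.1 (WT) and 64.5, 50.05, 54.1 and 44.3 (KO) on chow against 31.1, 39.4, 44.8 and 35.2 (WT) and 39.3, 50.1, 35.2 and 38.3 (KO) CPM on HFD and fell by 0.40 (SE 0.11, adjusted p = 0.0102).

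The other two changed members of the family varied more between animals. Gbp4 reached 79.1, 40.3, 26.3 and 62.5 (WT) and 36.9, 41.4, 71.4 and 41.5 (KO) on chow against 35.8, 30.4, 27.9 and 15.6 (WT) and 29.9, 26.6, 34.02 and 25.6 (KO) CPM on HFD, from 79.1 in WT chow 1 down to 15.6 in WT HFD 4, with a diet difference of -0.82 (SE 0.23, adjusted p = 0.0132). Gbp5, which promotes inflammasome assembly, gave 29.2, 20.5, 15.97 and 26.9 (WT) and 22.02, 18.2, 31.9 and 20.6 (KO) on chow against 19.6, 17.5, 18.3 and 13.4 (WT) and 16.7, 13.2, 14.6 and 10.3 (KO) CPM on HFD and -0.59 (SE 0.15, adjusted p = 0.00790), and in KO its 2 diets did not overlap. Gbp6 was at 0.02 and not called. Gbp4 and Gbp6 have close copies on the same chromosome (Gbp8, Gbp9 and Gbp10), and 29.0% of the exon bases of Gbp6 and 11.3% of those of Gbp7 overlap predicted genes, so the split of reads among them is uncertain.

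Of the 11 antiviral effectors, 4 fell. Ifit3, whose product binds foreign RNA together with IFIT1, had 37.9, 34.3, 54.4 and 31.02 (WT) and 48.8, 44.6, 30.9 and 34.1 (KO) on chow against 22.9, 29.4, 31.3 and 31.3 (WT) and 20.4, 35.1, 23.3 and 22.1 (KO) CPM on HFD and a diet difference of -0.55 (SE 0.15, adjusted p = 0.0101). The oligoadenylate synthetase Oas2, which triggers RNA decay by RNase L, had 20.8, 21.8, 25.4 and 22.02 (WT) and 17.5, 23.5, 22.001 and 19.01 (KO) on chow against 8.96, 22.5, 16.1 and 16.1 (WT) and 11.1, 17.6, 10.5 and 13.9 (KO) CPM on HFD and a difference of -0.56 (SE 0.16, adjusted p = 0.0133). In both genes 1 or 2 HFD libraries of each genotype reached the lower chow values. The dynamin-like GTPase gene Mx1 had 5.99, 15.9, 8.45 and 21.3 (WT) and 10.9, 5.56, 24.5 and 4.94 (KO) on chow against 3.56, 9.19, 6.38 and 5.48 (WT) and 5.81, 6.21, 2.76 and 3.70 (KO) CPM on HFD. Its chow values ran from 4.94 to 24.5 between animals, with WT chow 2 and 4 and KO chow 1 and 3 highest, and its difference of -1.19 (SE 0.37, adjusted p = 0.0228) had the widest error of the 38. Its paralog Mx2 had 3.71, 4.47, 4.32 and 4.02 (WT) and 5.03, 3.53, 4.84 and 2.56 (KO) on chow against 2.73, 4.21, 2.86 and 2.46 (WT) and 1.91, 3.60, 1.90 and 1.74 (KO) CPM on HFD and a difference of -0.61 (SE 0.20, adjusted p = 0.0259). The calls of Mx1 and Mx2 were lost without any 1 of 2 and 5 libraries, at adjusted p of up to 0.0540 and 0.0571.

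The other 7 effectors did not pass the test. Bst2, the most abundant by CPM, read 51.7, 72.4, 62.9 and 55.7 (WT) and 78.6, 47.9, 52.5 and 52.03 (KO) on chow against 49.9, 73.5, 69.9 and 57.3 (WT) and 48.5, 58.5, 50.2 and 51.6 (KO) CPM on HFD, a diet value of -0.05 (SE 0.11, adjusted p = 0.763). Rsad2, which encodes viperin, was the gene with the highest fold change of the 38, at 16.6, 12.4, 18.7 and 8.81 (WT) and 18.2, 16.1, 11.1 and 13.7 (KO) on chow against 14.2, 22.9, 25.5 and 14.7 (WT) and 9.28, 24.1, 16.6 and 15.2 (KO) CPM on HFD and 0.30 (SE 0.21, adjusted p = 0.281), with WT HFD 2 and 3 and KO HFD 2 above all 8 chow libraries and the other 5 HFD libraries within the chow range. Ifit1, Ifit2, Oas1a, Oasl1 and Oasl2 were at -0.50, -0.17, -0.12, -0.09 and -0.20, with adjusted p from 0.0600 for Ifit1 to 0.787 for Oasl1. Ifit3 and Ifit3b, and Oas1a and Oas1g, are near-identical pairs whose reads may be split.

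Neither gene of ISG15 conjugation was called. Isg15, whose product is attached to other proteins like ubiquitin, held 6.97, 9.93, 12.8 and 5.55 (WT) and 16.2, 6.78, 9.01 and 8.07 (KO) on chow against 6.04, 10.7, 9.38 and 9.95 (WT) and 4.89, 10.2, 7.18 and 7.18 (KO) CPM on HFD, with a diet value of -0.21 (SE 0.22, adjusted p = 0.496). Usp18, which removes ISG15 and dampens IFNAR signalling, held 11.3, 14.7, 10.6 and 14.1 (WT) and 16.5, 10.4, 14.1 and 7.69 (KO) on chow against 5.78, 12.2, 9.58 and 9.38 (WT) and 10.5, 9.88, 5.90 and 8.72 (KO) CPM on HFD, with a diet value of -0.47 (SE 0.18, adjusted p = 0.0600). In both genes the diets overlapped in each genotype.

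All 3 antigen processing genes fell. They lie side by side on chromosome 17 (GRCm38): Psmb9 at chr17:34181987-34187764 on the minus strand, Tap1 at chr17:34187553-34197225 and Psmb8 at chr17:34197721-34201454, both on the plus strand, and the exons of Psmb9 and Tap1 share 212 bases. Those of Psmb8 share 498 bases (14.7% of its exon bases) with the predicted gene Gm20496. Psmb9, a catalytic subunit of the immunoproteasome that cuts peptides for MHC class I, had 56.7, 59.1, 35.7 and 67.99 (WT) and 63.5, 43.7, 64.01 and 39.6 (KO) on chow against 26.2, 37.3, 32.9 and 27.3 (WT) and 35.1, 31.4, 24.6 and 23.9 (KO) CPM on HFD. KO chow lay wholly above KO HFD, only WT chow 3 reached into the WT HFD range, and the difference was -0.85 (SE 0.15, adjusted p = 7.90e-04). The second immunoproteasome subunit, Psmb8, had 47.2, 66.4, 41.2 and 85.7 (WT) and 73.8, 46.9, 80.1 and 45.9 (KO) on chow against 36.6, 50.5, 41.6 and 41.6 (WT) and 52.9, 40.98, 30.8 and 34.9 (KO) CPM on HFD and fell by 0.56 (SE 0.17, adjusted p = 0.0219). Tap1, a subunit of the pump that carries those peptides into the endoplasmic reticulum, had 69.9, 97.3, 50.8 and 127 (WT) and 98.6, 50.5, 110.3 and 55.97 (KO) on chow against 48.1, 66.1, 54.9 and 40.1 (WT) and 69.2, 47.1, 36.6 and 40.9 (KO) CPM on HFD and a difference of -0.71 (SE 0.22, adjusted p = 0.0236). Tap1 was highest in the same 4 chow libraries as Mx1, and its call was lost without any 1 of 3 libraries, at an adjusted p of up to 0.0533.

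Xaf1 was the gene of the 38 with the smallest p and the only one whose 8 chow libraries all lay above its 8 HFD libraries (1 of 38, 2.63%, against 2.53% of all genes tested). It encodes a factor that promotes cell death by opposing XIAP, and had 29.6, 22.5, 22.6 and 21.1 (WT) and 20.4, 20.9, 27.2 and 21.5 (KO) on chow against 19.003, 17.9, 17.96 and 14.6 (WT) and 14.02, 15.3, 15.2 and 15.1 (KO) CPM on HFD. The lowest chow value was 20.4 and the highest HFD value 19.003, and the difference was -0.53 (SE 0.09, adjusted p = 7.38e-04). Of the other genes of its group, Ifi27 held 519, 498, 701 and 500.3 (WT) and 563, 610.2, 405 and 581 (KO) on chow against 552, 453, 559.6 and 516 (WT) and 485, 575, 575 and 585 (KO) CPM on HFD with a diet value of -0.03 (SE 0.10, adjusted p = 0.869). Parp14, an ADP-ribosyltransferase of the interferon response, held 80.4, 98.1, 73.2 and 86.2 (WT) and 90.2, 69.99, 98.6 and 75.5 (KO) on chow against 65.6, 92.6, 78.1 and 76.7 (WT) and 74.8, 77.6, 60.7 and 67.5 (KO) CPM on HFD with a diet value of -0.18 (SE 0.09, adjusted p = 0.147). Parp9, Ifi44, Rtp4 and Ifi35 were not called, at -0.27, -0.47, -0.33 and 0.08.

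**Figure D3:**
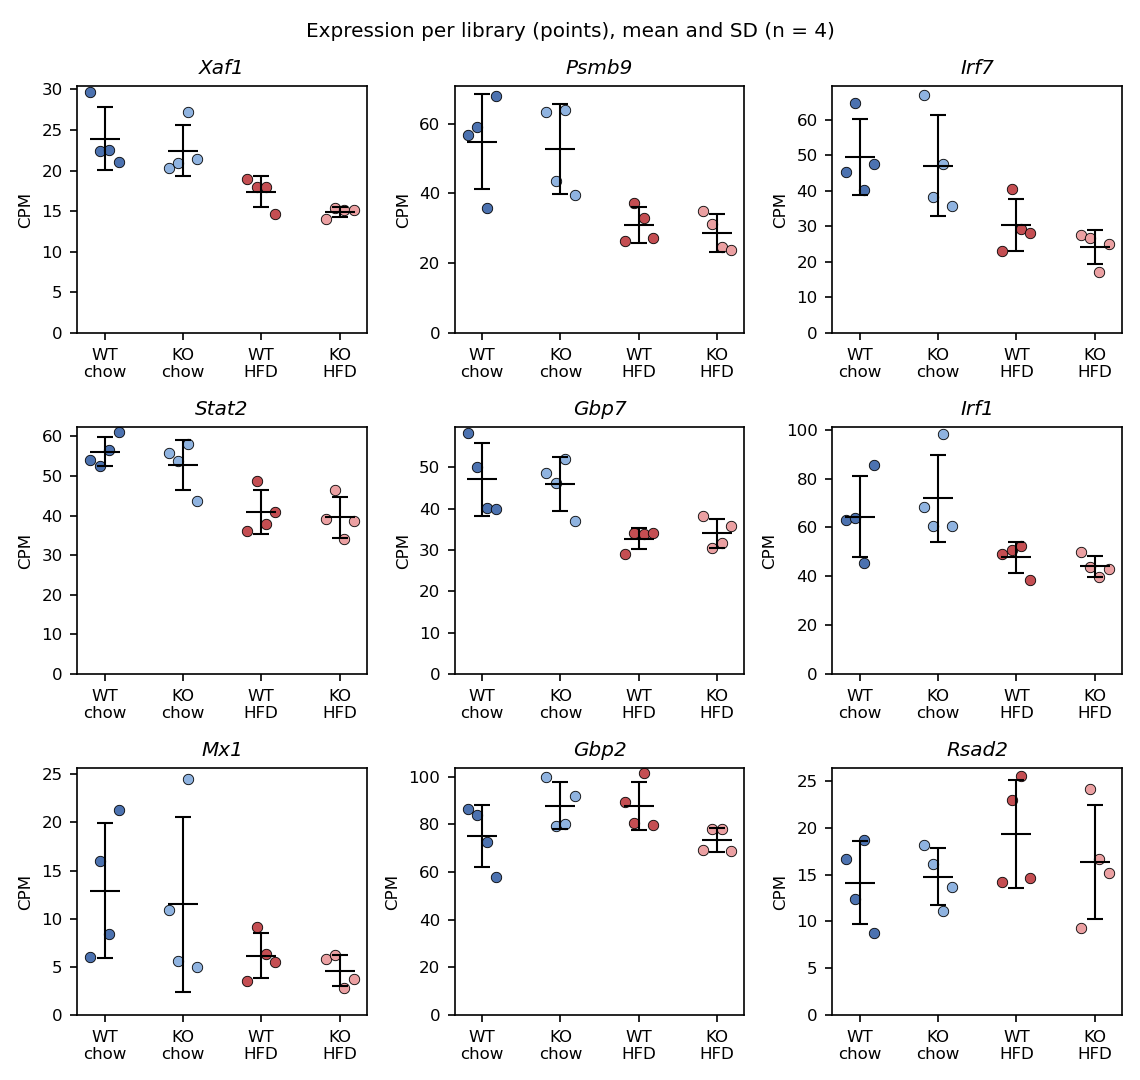
CPM of 9 of the genes in each library (points), with the mean and SD of each group of 4 (bars), WT in dark and KO in light colour, chow blue and HFD red. Xaf1 shows no overlap between the diets (20.4 CPM and above on chow, 19.003 and below on HFD), Mx1 shows the wide chow spread, and the diets overlap for Gbp2 in WT and for Rsad2 in both genotypes.

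Within each genotype, fewer genes passed. In WT, 4 of 38 were lower on HFD and 0 higher (10.5%, against 4.92% of all genes called lower, 6.9% called higher and 11.8% in either direction): Psmb9 at -0.83 (SE 0.21, adjusted p = 0.0219), Gbp7 at -0.52 (SE 0.13, adjusted p = 0.0233), Stat2 at -0.46 (SE 0.12, adjusted p = 0.0249) and Xaf1 at -0.46 (SE 0.13, adjusted p = 0.0314). Stat2, Gbp7 and Xaf1 had no overlap between the diets in WT (3 of 38, against 7.43% of all genes). The median over the 38 genes was -0.33 against -0.03 over all genes. The count was 0 without WT chow 1 or WT HFD 3, 1 without WT HFD 1, 2 without WT chow 4 and 7 without WT chow 3. It was also 0 in the 12 merged libraries, where WT chow had 3 animals and WT HFD 2. With the lymphoid score in the model the same 4 genes were called and the median was -0.23. In the libraries of low score, WT chow 1 and 3 against WT HFD 1, 3 and 4, 0 were called and the median was -0.29. The shares of all genes called in these other fits are not given here.

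In KO, 7 of 38 were lower and 0 higher (18.4%, against 5.23% of all genes called lower, 7.28% called higher and 12.5% in either direction). They were Xaf1 at -0.59 (SE 0.13, adjusted p = 0.0111), Irf7 at -0.97 (SE 0.23, adjusted p = 0.0150), Psmb9 at -0.87 (SE 0.21, adjusted p = 0.0167), Irf1 at -0.71 (SE 0.18, adjusted p = 0.0231), Gbp5 at -0.76 (SE 0.21, adjusted p = 0.0325), Stat2 at -0.41 (SE 0.12, adjusted p = 0.0350) and Gbp7 at -0.43 (SE 0.13, adjusted p = 0.0458). The diets did not overlap in KO for 7 genes, Irf1, Irf7, Gbp2, Gbp4, Gbp5, Psmb9 and Xaf1 (18.4% of the 38 against 8.47% of all genes), although Gbp2 and Gbp4 did not pass the test. The median was -0.44 against -0.04. The KO count was 1 without KO HFD 3, 2 without KO chow 3 or KO HFD 4 and 11 without KO chow 4, and DESeq2 and limma-voom called 13 and 12 genes. With the lymphoid score in the model 7 were called, 6 of them among these 7, and the median was -0.37. In the libraries of low score, KO chow 2 and 4 against KO HFD 2, 3 and 4, 0 were called and the median was -0.29. As in WT, the shares of all genes called in these other fits are not given here.

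The diet response was not shown to differ between the genotypes. The interaction of genotype and diet called 0 of 38 genes (edgeR; 0% of all genes tested), with 1 gene at an unadjusted p under 0.05 (1.13% of all genes), and DESeq2 and limma-voom also called 0. That gene was Gbp2, at -0.48 (SE 0.18, unadjusted p = 0.0157) and an adjusted p of 0.9999. Its mean CPM on chow was 75.1 ± 12.98 (WT) and 87.8 ± 9.85 (KO), and on HFD 87.7 ± 10.1 (WT) and 73.4 ± 5.20 (KO), each with its SD and n = 4. Over the 38 genes 30 interaction values lay below 0, with a median of -0.18 against 0.00 over all genes and a median half-width of the 95% intervals of 0.65. In the 10 libraries with a lymphoid score under 4, 14 lay below 0 and the median was 0.10. On chow that set rests on WT chow 1 and 3 and KO chow 2 and 4 alone. With the lymphoid score in the model of all 16 libraries 31 lay below 0 and the median was -0.18. The median also moved to -0.087 without KO chow 1, -0.11 without WT HFD 2 and -0.28 without KO HFD 2.

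Between KO and WT, none of the 38 genes passed the threshold. On chow 0 of 38 were called by edgeR, DESeq2 or limma-voom, with 0 at an unadjusted p under 0.05 in edgeR (background 0.00604% of all genes adjusted, which is Kmo itself, and 1% unadjusted). Differences of KO from WT on chow ran from -0.18 for Gbp6 to 0.22 for Gbp2, with a median of -0.03 against -0.0048 over all genes. On HFD the 3 tools again called 0 of 38 (background 0.00604%), and 1 gene had an unadjusted p under 0.05 (1.14% of all genes). This was Oasl1, an oligoadenylate synthetase-like gene, with 3.26, 7.70, 3.59 and 5.17 (WT) and 7.61, 3.19, 4.65 and 3.002 (KO) on chow against 3.88, 8.23, 5.99 and 4.98 (WT) and 4.11, 3.34, 3.44 and 2.999 (KO) CPM on HFD and a value of -0.73 (SE 0.34, unadjusted p = 0.0447) on HFD. Its KO HFD library 1 lay within the WT HFD range.

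On HFD the 38 values leaned to one side without any passing the test. In all, 33 of 38 lay below 0, against 49.4% of all genes, with a median of -0.20 against 0.00, and all 11 antiviral effectors were among the 33. The median was -0.11 without WT HFD 2, -0.12 without KO HFD 3 and -0.30 without KO HFD 2, with 29, 28 and 34 genes below 0. With the lymphoid score in the model it was -0.20 with 33 below 0, and in the libraries of low score it was -0.10 with 28 below 0. With the macrophage score in the model it was -0.12 with 32 below 0. Without overlap between the 2 HFD groups stood 1 gene, Gbp2, lower in KO (2.63%, against 0.562% of all genes), at -0.26 (SE 0.13, unadjusted p = 0.0582). The median half-width of the 95% intervals was 0.46 on chow and on HFD, which bounds what groups of 4 animals could resolve. Over both diets 0 of 38 were called (background 0.00604%; 0 at an unadjusted p under 0.05, against 0.997% of all genes), 31 lay below 0 and the median was -0.08. Of the 38, 0 in the authors' deposited tables had an adjusted p under 0.05, and the smallest unadjusted p was 0.192 for Gbp2 on chow and 0.00779 for Oasl1 on HFD.

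**Figure D4:**
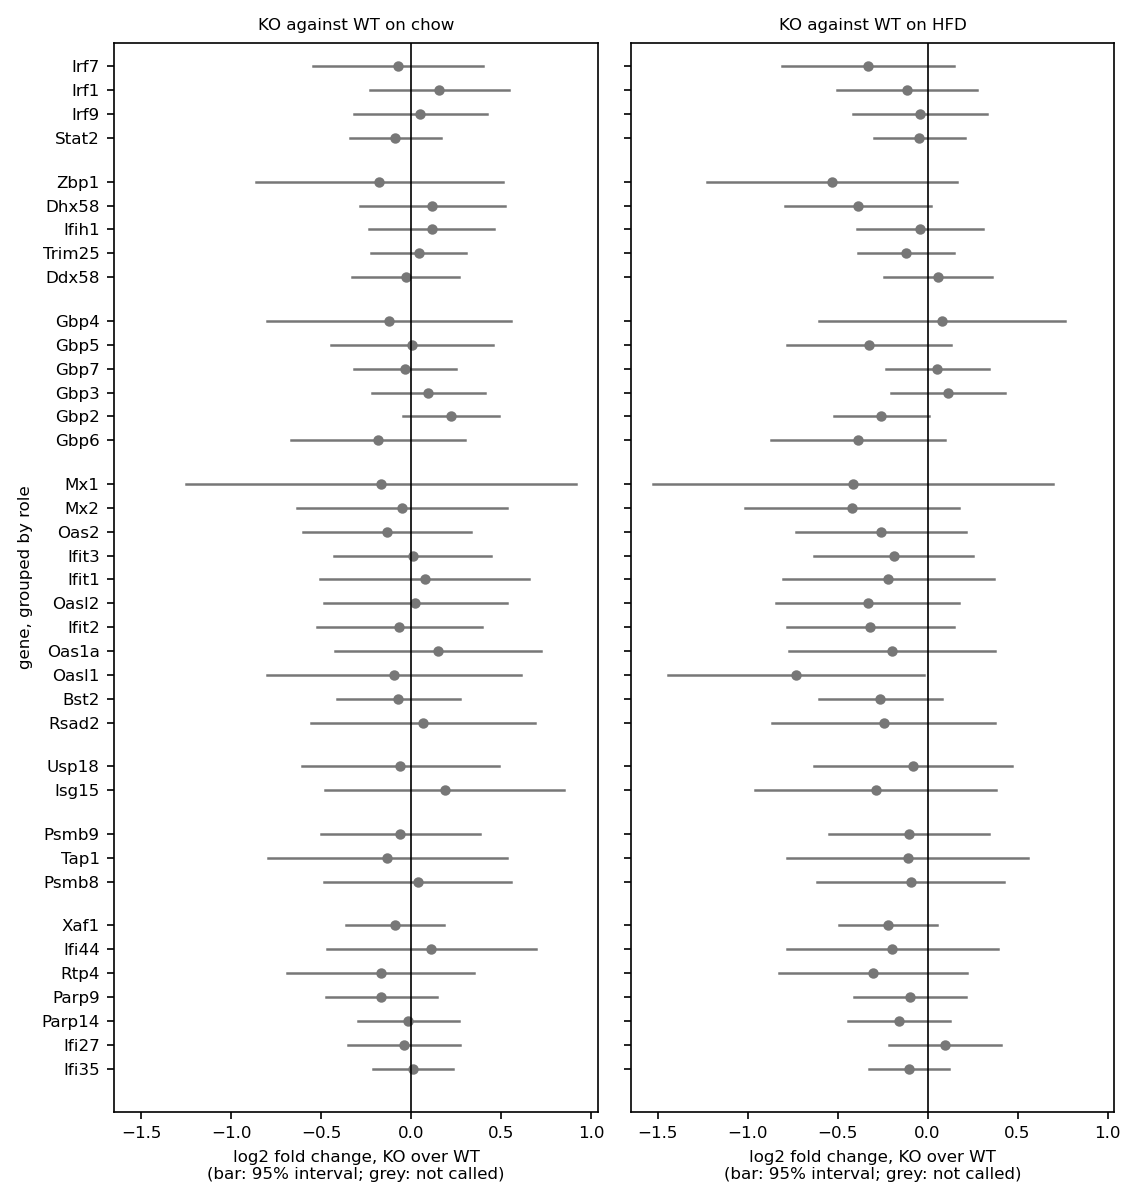
Log2 fold change of KO over WT for the 38 genes on chow (left) and on HFD (right), 4 against 4 libraries each, with 95% intervals. No gene was called on either diet; 21 points lie below 0 on chow and 33 on HFD, the lowest being Oasl1 at -0.73 on HFD.

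Part of the variation between animals followed lymphoid content. With the 4 group means in the model, 14 of 38 genes rose with the lymphoid score and 1 fell (39.5%, against 21.6% of all genes called in either direction, 12.8% called higher and 8.82% called lower). Slopes are log2 units per unit of the score. Tap1 rose by 0.18 (SE 0.02, adjusted p = 4.16e-06), Psmb8 by 0.13 (SE 0.02, adjusted p = 1.36e-04), Psmb9 by 0.12 (SE 0.02, adjusted p = 2.01e-04) and Mx1 by 0.24 (SE 0.06, adjusted p = 0.00801). Zbp1 (0.16), Oasl1 (0.15), Usp18 (0.11), Irf7 (0.09), Irf1 (0.09), Irf9 (0.09), Gbp5 (0.09), Parp14 (0.06), Ddx58 (0.06) and Trim25 (0.05) also rose, and Ifi27 fell by 0.07. Xaf1 and Stat2, both lower on HFD, had slopes of 0.01 and 0.03 that did not pass the test. Without WT chow 3, the library with the third lowest score, 9 of the 15 calls were made, and among the 10 libraries of low score 0 were (6 at an unadjusted p under 0.05). The slope calls of Ddx58, Gbp5 and Trim25 were lost without any 1 of 14, 10 and 8 of the 16 libraries. Those of Irf7, Parp14, Usp18 and Ifi27 were lost without any 1 of 3, 3, 2 and 1, and the rest were kept each time.

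Lymphoid markers themselves were above a score of 4 in 4 of 8 chow and 2 of 8 HFD libraries. The 10 T cell markers, all measured and none at 0 in a group, summed on chow to between 11.97 and 427 CPM (WT) and between 19.7 and 391 CPM (KO), and on HFD to between 8.31 and 109 (WT) and between 12.3 and 165 (KO). The 9 B cell markers summed to 7.38 to 749, 7.38 to 650, 3.97 to 528 and 5.67 to 621 CPM in the same order. The medians of the 12 macrophage markers went the other way, at a sum on chow of 644 CPM (WT) and 659.8 (KO), and on HFD of 1339.6 (WT) and 1018 (KO). The single libraries overlapped between the diets. They ran from 618 to 1554 (WT) and 498 to 1263 (KO) CPM on chow, and from 687 to 1398 (WT) and 815 to 1121 (KO) on HFD. This difference was not tested. With the macrophage score in the model 24 of the 38 genes were called lower on HFD. The share of all genes called lower in that fit is not given here, so this count alone does not set the 38 apart. NK cell markers, 7 in all, summed to medians of 13.2 (WT) and 12.4 (KO) CPM on chow against 7.52 (WT) and 3.78 (KO) on HFD. Those of 7 dendritic cell markers were 76.1 (WT) and 62.7 (KO) on chow against 45.9 (WT) and 49.3 (KO) on HFD. Single libraries overlapped between the diets for both lists. NK cell sums ran from 9.85 to 21.8 (WT) and 8.32 to 17.5 (KO) on chow, and from 3.84 to 10.4 (WT) and 3.32 to 9.98 (KO) on HFD. Dendritic cell sums ran from 44.2 to 148 (WT) and 41.9 to 154 (KO) on chow, and from 39.7 to 71.7 (WT) and 41.8 to 83.5 (KO) on HFD. Of 7 plasmacytoid dendritic cell markers 6 passed the filter and 1 (Bst2) is among the 38. The 7 summed to medians of 202 (WT) and 205 (KO) CPM on chow against 186 (WT) and 180 (KO) on HFD, and single libraries overlapped between the diets in both genotypes. The mean log2 CPM of the 6 was 3.24 ± 1.37 (WT) and 3.02 ± 1.40 (KO) on chow. On HFD it was 2.23 ± 1.01 (WT) and 2.16 ± 1.13 (KO), each with its SD between animals. The part of the NK cell and dendritic cell markers in the diet differences was not tested. Muscle markers summed to between 17.2 and 4834 CPM, and with the muscle score in the model 17 genes were called lower on HFD, 16 of them among the 17. For the muscle fit, too, the share of all genes called lower is not given here.

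With the lymphoid score in the model, 14 of the 38 genes were called lower on HFD, against 15% of all genes. Of the 14, 13 were among the 17. Parp9 was added, and Zbp1, Gbp4, Mx1 and Mx2 were lost. The exons of Parp9 share 458 bases (9.40%) with Dtx3l, and counting did not use strand. Tap1 moved from -0.71 to -0.34 (adjusted p = 0.0123), Psmb8 from -0.56 to -0.29, Irf9 from -0.44 to -0.27 and Irf1 from -0.57 to -0.38, each still called. Xaf1 moved from -0.53 to -0.51, Stat2 from -0.43 to -0.38, Irf7 from -0.84 to -0.66 and Psmb9 from -0.85 to -0.62, also still called. Of the other genes called in both fits, Gbp3 was at -0.35, Gbp5 at -0.43, Gbp7 at -0.41, Ifit3 at -0.66 and Oas2 at -0.56. In the 10 libraries of low score (4 chow and 6 HFD), 9 genes were called lower: Stat2 (-0.42), Irf9 (-0.25), Irf1 (-0.38), Irf7 (-0.69), Gbp7 (-0.48), Ifit3 (-0.63), Oas2 (-0.68), Psmb9 (-0.67) and Xaf1 (-0.55), all 9 among the 17. Mx1 was there at -0.41 with an adjusted p of 0.263. In those libraries 10.2% of all genes were called lower. With the lymphoid and the macrophage score together 14 were called lower, 8 of them among the 17. In the 12 merged libraries 9 were called, all among the 17. For the fit with both scores and for the merged libraries the share of all genes called lower is not given here.

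**Figure D5:**
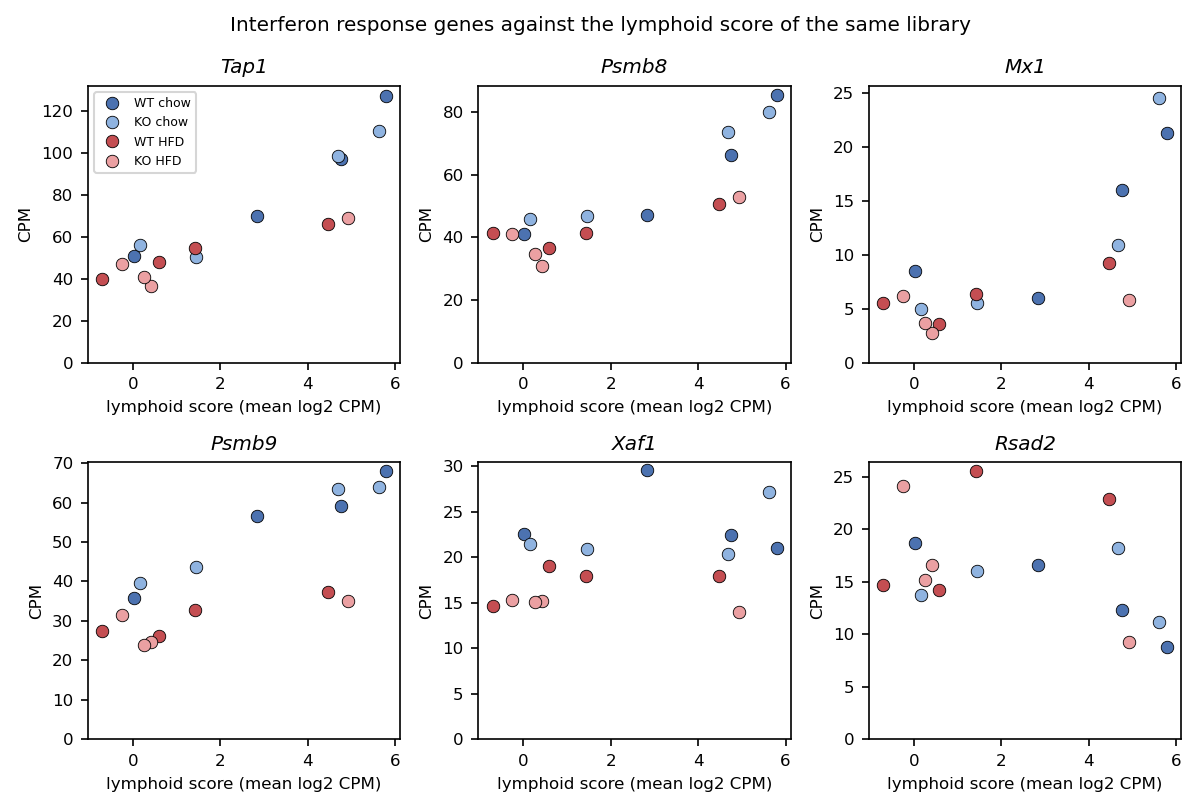
CPM of 6 of the genes (vertical axis) against the lymphoid score of the same library (horizontal axis, in log2 CPM), coloured by group. Tap1 and Psmb8 climb with the score on both diets, Mx1 climbs on chow, Psmb9 climbs and is also lower on HFD at like scores, and Xaf1 separates by diet at every score.

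Other genes of the pathway were described from lists kept apart from the 38. These lists, like the 38, were chosen with earlier results of these data known. Their counts are descriptive and are no separate test of the diet difference. Of 11 interferon genes, 0 passed the filter on low counts: Ifng had 19 counts over all 16 libraries and Ifnb1 had 0. Of 6 receptor genes 1 rose on HFD, Ifngr2, a chain of the interferon gamma receptor, at 0.27 (SE 0.07, adjusted p = 0.0108), and 1 fell, Il10rb, shared by the interferon lambda and interleukin 10 receptors, at -0.32 (SE 0.08, adjusted p = 0.00586). Ifnar1 and Ifnar2 were at -0.04 and 0.14 and were not called. In this comparison 17.1% of all genes tested were called higher and 16% lower, so 1 of 6 each way does not set the receptor genes apart.

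Among the genes of receptor signalling, Irf2 changed by -0.42 (SE 0.14, adjusted p = 0.0292) and Stat3 rose by 0.18 (SE 0.06, adjusted p = 0.0398), and neither was called with the lymphoid score in the model (adjusted p = 0.0533 and 0.0523). Of 13 genes of nucleic acid sensing upstream of interferon 5 fell and 0 rose, with the adaptor Mavs at -0.26, the factor Irf3 at -0.22, the kinases Tbk1 at -0.20 and Ikbke at -0.72, and the DNA sensor Cgas at -0.48. With the lymphoid score in the model 2 of the 5 were called, Mavs at -0.27 and Irf3 at -0.20, 1 other gene of the 13, Irf5, was called higher at 0.40, and the median of the 13 moved from -0.20 to 0.036. The share of all genes called higher in that fit is not given here.

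Of 12 immunity-related GTPases and related genes 5 fell and 0 rose, led by Irgm1 at -0.58 (SE 0.10, adjusted p = 9.28e-04) and Gbp11 at -2.11 (SE 0.37, adjusted p = 0.00102). Of 43 other genes of the type I response 10 fell and 0 rose, with Parp10 at -0.51 (SE 0.08, adjusted p = 3.14e-04), Dtx3l, the partner of PARP9, at -0.60 (SE 0.10, adjusted p = 7.54e-04), Nmi at -0.46 (SE 0.09, adjusted p = 0.00171) and Herc6 at -0.51 (SE 0.11, adjusted p = 0.00282). Of 14 genes of MHC class I and antigen processing 6 fell and 0 rose, including H2-T22 (-0.33), H2-Q4 (-0.51), H2-K1 (-0.30) and H2-D1 (-0.29), close copies among which reads may be split. Of the 8 genes tested on the list named inhibitors here 2 fell, Ptpn2 at -0.29 and Isg20 at -0.32. Isg20 is also among the 43 type I response genes, and its place on that list does not mark it as an inhibitor. Of 4 chemokines 1 fell, Cxcl9 at -0.49. These shares stand beside the same background of 16% of all genes called lower and 17.1% called higher.

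Many genes of these lists also rose with the lymphoid score: 6 of the 13 sensing genes, 7 of the 12 GTPases, 17 of the 43 other type I response genes (1 fell), 5 of the 14 MHC class I genes, 5 of the 8 inhibitors and 1 of the 4 chemokines, against 12.8% of all genes. With that score in the model 3 of the 12 GTPases were called lower on HFD, Irgm1 at -0.43 and Gbp11 at -2.18 among them, and all 3 were among the 5. Of the 43, 11 were called lower, 8 of them among the 10, with Parp10 at -0.51, Dtx3l at -0.61, Nmi at -0.42 and Herc6 at -0.43. Of the 14 MHC class I genes 5 were called lower, all among the 6, and 1, Psmb10, was called higher at 0.25. Of the inhibitors and the chemokines 0 were called. The background was then 15% of all genes called lower, and the share called higher is not given here. In the 10 libraries of low score the counts called lower were 0 of 13 sensing genes, 3 of 12 GTPases, 9 of 43 and 2 of 14, with 0 inhibitors and 0 chemokines, against 10.2% of all genes. With the muscle score in the model 2 of the 12 GTPases were called lower, given without the share of all genes in that fit. In KO against WT without a covariate, 0 genes of these lists were called on either diet.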

How the data were processed

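Poly-A RNA of inguinal fat was sequenced as read pairs of 150 bases with a stranded kit, per the labels' protocols. STAR 2.7.3a and GRCm38.p6 are named in the submitters' processing notes. The deposited counts are whole read pairs per gene from featureCounts 2.0.3 on Ensembl 102, counted without strand and not normalised by the authors, per the file headers. The authors' deposited tables also hold shrunken log2 fold changes and p-values of KO against WT from DESeq2, per the submitters' processing notes. They were used only where credited.

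Counts were analysed in R 4.3.3 with edgeR 4.0.16: filterByExpr kept 16549 genes, TMM factors were used, and a robust quasi-likelihood fit of 4 group means to all 16 libraries gave every comparison, with Benjamini-Hochberg adjustment over all genes tested and a threshold of 0.05. DESeq2 1.42.0 and limma 3.58.1 (voom with quality weights), other scalings, filters, covariates and the omission of each library were alternatives. Log2 CPM used a prior count of 2. Library totals of 13824404 to 16909361 set the precision, and no 2 libraries of a group agreed within sampling noise (lowest chi-square per gene 10.6). The labels give separate animals. Replicate numbers share no stated litter or day, so the main fit has no block.

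A gene was given library by library if called in a comparison of groups or if among the 2 most abundant of its role; called genes of other lists were named up to 4 by adjusted p. The genes, their roles and all lists were chosen with earlier results of these data known. Oasl1, Rsad2 and the Isg15 promoter were singled out after their values were seen, as were members given by fold change alone. The subsets of merged and of low-score libraries, the fit with both scores and the covariate fits of the other lists were chosen after seeing the data. The script was tested on simulated counts. Normalised copies of the counts were not used, and a gene of the receptor signalling list is not reported here.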

Additional observations from a re-analysis of the deposited data

Results flagged for a closer look

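Of 100 sets of 4 values (25 genes in 4 groups), 8 held a library whose gap to its nearest neighbour exceeded the 95% limit of Dixon's test; chance flags about 5%. Gbp4 had 71.4 CPM in KO chow 3 against 36.9 to 41.5 in the other KO chow libraries, and Xaf1 had 27.2 in the same library against 20.4 to 21.5. Bst2 had 78.6 CPM in KO chow 1 against 47.9 to 52.5. Ifi27 had 701 CPM in WT chow 3 against 498 to 519. On HFD, Gbp7 had 28.98 CPM in WT HFD 1 against 33.8 to 34.1, and Mx2 had 3.60 in KO HFD 2 against 1.74 to 1.91. KO HFD 1 was low for Xaf1 at 14.02 CPM against 15.1 to 15.3 and for Ifi27 at 485 against 575 to 585. Among the KO HFD libraries it alone had a lymphoid score above 4 and a single lane, and its total of 13824404 was the lowest of all libraries. Which of these goes with the low values was not tested. Without KO chow 3 the pooled diet values of Gbp4 and Xaf1 were still called.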

How the results depend on the processing

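Genotype and interaction counts were 0 of 38 under every alternative run, each library omitted in turn included. The pooled diet count was 17 and ran from 13 to 20 with 1 library left out. It was 1 with a minimum log2 change of 1 (Mx1), 9 in merged libraries and 9 in libraries with a lymphoid score under 4. Stat2, Irf7, Gbp7, Ifit3, Psmb9 and Xaf1 kept their call under every setting of that comparison apart from the minimum fold change. The WT count of 4 ran from 0 to 7 with 1 library left out, and was 0 with the minimum change, 7 at a threshold of 0.10, 0 in merged libraries, 0 under a lymphoid score of 4 and 2 with lymphoid and macrophage scores. The KO count of 7 ran from 1 to 11 with 1 library left out, and was 13 with DESeq2, 12 with limma-voom, 0 with the minimum change, 13 at 0.10 and 0 under a lymphoid score of 4. The 15 genes following the lymphoid score became 9 to 14 with 1 library left out and 0 under a score of 4, where the slopes of Ddx58 and Mx1 turned to -0.030 and -0.10. The cause of these changes was not tested, and settings with fewer libraries have less power. The counts of this section are given without the share of all genes called in the same setting. They show how the list of called members changed, and not how the 38 compare with all genes.

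Same-numbered libraries did not deviate together (r from -0.69 to 0.55 over 16 pairs, 8 above 0.1, 5 best with their own number). With the replicate number as a block the counts were 16 over both genotypes, 2 in WT, 4 in KO and 10 for the lymphoid score, again without the shares of all genes.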
